A study of Mus musculus with 18 samples.

Results

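Cells recovered from implanted biomaterial scaffolds were followed over 3 days of sampling, and the genes that moved the same way in healthy and in tumour-bearing mice are described. The set consists of the 6 scaffold libraries of a series of 18 that also covers lung and spleen, and holds 7082 of the 19761 cells kept in the whole series. The mice were female BALB/cJ animals. The tumour-bearing group was inoculated in the fourth right mammary fat pad with 2000000 cells of 4T1-tdTomato-luc2, a tagged line of the 4T1 mammary carcinoma, and was sampled 7, 14 or 21 days later at 9, 10 and 11 weeks of age. Healthy mice of the same days and ages had no tumour cells, and they carried scaffolds too. Not given in the sources used here are the material of the scaffold, the day on which it was implanted and the number of animals behind a library. Each status and day gave 1 library, so a change with day rests on 2 libraries per day with status as a block. The p-values set that change against what status and day leave unexplained. A difference in course between the statuses thus counts as error, and no spread between replicate libraries is measured. Day, age of the mice and the processing of that day's libraries cannot be told apart.

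As background, an implanted material is treated by the body as foreign: neutrophils and monocytes enter first, macrophages follow and remain, and fibroblasts, vessels and new matrix fill the space. Early infiltrates often hold dividing cells, while later tissue holds fibroblasts that secrete collagens, small leucine-rich proteoglycans and basement membrane proteins. Macrophages in settled connective tissue commonly carry LYVE1, a hyaluronan receptor, and CD163, a scavenger receptor for haemoglobin bound to haptoglobin. 4T1 tumours are known for secreting granulocyte colony-stimulating factor and for raising neutrophils in blood and organs.

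The libraries were made by Drop-seq, in which 1 cell and 1 barcoded bead share a droplet and each transcript is counted once through its unique molecular identifier (UMI). About 1000 STAMPs, as beads that met a cell are called, went into the amplification of each library. The 6 tables held 961 to 1932 barcodes and 2068925 to 4530115 UMIs. Between 747 and 1634 barcodes per library were kept and are called cells here, with medians of 892.5 to 1408 UMIs and 529.5 to 761 genes. Libraries with 1279, 1309, 1334 and 1634 kept barcodes exceed the stated number of STAMPs, and the reason was not tested. Some barcodes occurred in more than 1 library of a day, namely 279 of 5684 at day 7, 103 of 8932 at day 14 and 1046 of 7545 at day 21 across the 3 tissues. Of these, 177, 27 and 302 were in both scaffold libraries. Keeping a shared barcode only where its UMIs were at least 5 times the next took 29.97% of the barcodes and 8.40% of the UMIs from the healthy library of day 21, and 17.3% and 4.39% from the tumour-bearing one. Barcodes alike in their first 11 bases, which may be 1 cell counted more than once, numbered 182 and 289 in the healthy and tumour-bearing libraries of day 7 and at most 10 in the other 4. Barcodes ending in N numbered 269 and 173 in the healthy and tumour-bearing libraries of day 14 and at most 60 in the other 4. In lung and spleen they numbered 177 to 237 at day 14 and at most 59 on the other days. Their part in the changes at day 14 was not tested. Levels below are CPM (counts scaled to the library's UMI total, with TMM factors except for spleen) over the kept cells of a library. Where 3 values are joined in a sentence, they are those of days 7, 14 and 21. In bulk sums of this kind fewer cells of a type and less RNA per cell cannot be told apart.

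From day 7 to day 21 the scaffold gained RNA of fibroblasts and connective tissue and lost RNA of dividing cells, in both statuses. Among 10772 genes tested with edgeR's quasi-likelihood method, 146 were higher and 39 lower at day 21 at a Benjamini-Hochberg adjusted p under 0.05 with the same sign in both statuses, which are 1.36% and 0.362% of the genes tested (1.72% in all). Another 3 genes (Gm15845, Igj and Lipg) passed the test without a shared sign, which makes 1.75% with them, and 1499 genes had an unadjusted p under 0.05. The called increases began at 1.29 on the log2 scale, and 8 of the 146 genes had no UMI at day 7. The decreases ran from -3.53 to -1.35, with a median of -1.80. Day 14 lay between the other days in both statuses for 95 of the 146 and for 22 of the 39. At day 21, 89 of the 146 genes stood higher in the healthy than in the tumour-bearing library. Just inside the threshold was Mmp19 (1.43 ± 0.31, adjusted p = 0.0496), and just outside were Sepp1 (1.07 ± 0.23) and Fgfr1 (1.25 ± 0.27), both with an adjusted p of 0.051 (log2 change ± SE). Fitted without status as a block, 6 genes were higher and 1 lower, and with day as a number 59 and 3. The numbers of calls depended on the library set: without the healthy library of day 7, 14 or 21 there were 441, 266 and 377 higher and 121, 99 and 107 lower genes, and without the tumour-bearing library of day 7 or 14 there were 265 and 289 higher and 82 and 115 lower genes. Of the 185 genes, 129 to 172 were called again when 1 library was left out.

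**Figure D1:**
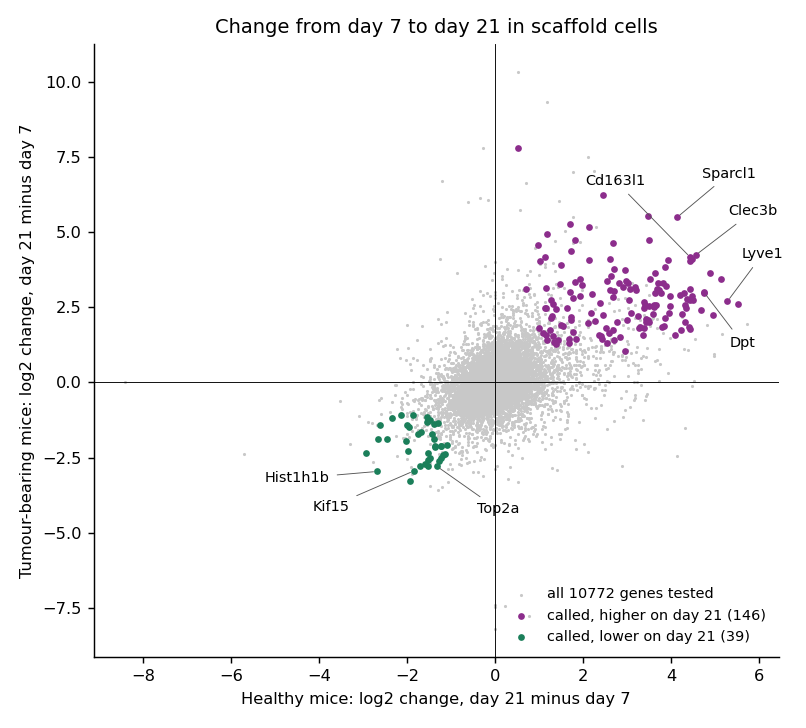
Log2 change from day 7 to day 21 in scaffold cells of healthy mice (horizontal axis) and tumour-bearing mice (vertical axis), 1 point per gene of the 10772 tested, with called genes in purple (146 higher) and green (39 lower). The called genes lie in the upper right and the lower left because a shared sign was required, and Sparcl1, Clec3b, Cd163l1, Dpt and Lyve1 sit far to the upper right.

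Most of the genes that rose had their highest level in 1 small class of cells. When the scaffold cells were clustered, 93 of the 146 genes (63.7%) had their highest mean level in the cells called fibroblast-like from their markers, a class that was the highest for 953 of all 10772 genes (8.85%). A further 15 genes (10.3%) were highest in neutrophil-like cells, against 3.3% of all genes, and 13 (8.9%) in neutrophil progenitor-like cells, against 2.46%. The tumour-bearing library of day 21 gave 92.3% and 94.1% of the cells of these classes. Class and day thus overlap, and a gene high in that library tends to be placed there. T cell-like cells were highest for 4 (2.74%), against 7.33% of all genes. The share of neutrophil-like cells was called from day 7 to day 21 (6.47 ± 1.08 on the log2 scale, edgeR over 19 classes, adjusted p = 0.00338). They went from 0 to 2 cells in healthy and from 5 to 454 in tumour-bearing libraries, so the rise of this class was almost all in tumour-bearing mice. The call of this share was lost without the tumour-bearing library of day 7 (3.84) or of day 21 (6.77). Cluster 12, left unnamed though 9 neutrophil markers were raised in it, went from 63 to 211 cells in healthy and from 232 to 61 in tumour-bearing libraries. Fibroblast-like cells numbered 4, 61 and 67 in the healthy libraries, which is 0.535% (exact 95% interval 0.146 to 1.37), 3.73% and 5.24% (4.08 to 6.61) of the kept cells. In the tumour-bearing libraries they numbered 5, 8 and 33, or 0.375%, 1.03% and 2.52% (1.74 to 3.52). Both libraries of day 21 thus lay above both libraries of day 7, and the change in the share was 2.97 ± 0.72 on the log2 scale (edgeR over 19 classes, adjusted p = 0.0118). Share and gene sums are the same measurement here, since the class was built from these genes. With only 9 fibroblast-like cells at day 7, the call was lost without the healthy library of day 7 (2.54, adjusted p = 0.403), the tumour-bearing library of day 7 (3.46, adjusted p = 0.376) or that of day 21 (2.83, adjusted p = 0.147).

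**Figure D2:**
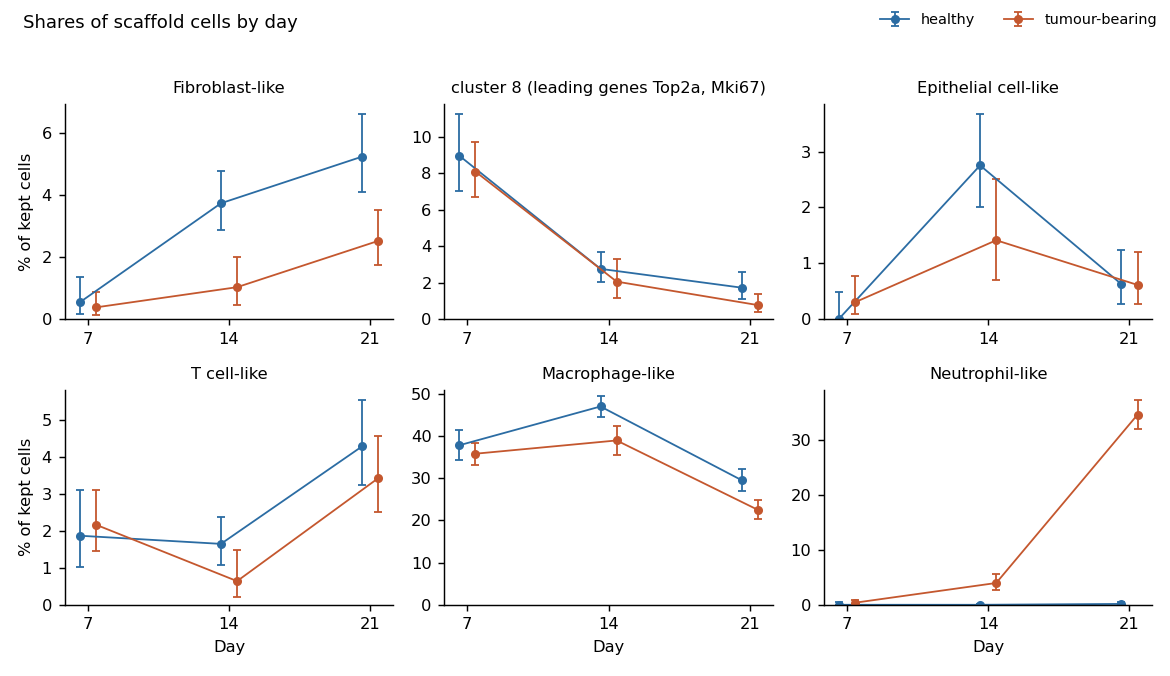
Share of kept cells (percent) in 6 classes at days 7, 14 and 21, with blue for healthy and orange for tumour-bearing libraries and bars for exact 95% binomial intervals, which cover counting error only. Fibroblast-like cells reach 5.24% and 2.52% at day 21, cluster 8 drops from 8.97% and 8.10% to 1.72% and 0.764%, and neutrophil-like cells reach 34.7% in the tumour-bearing library of day 21 alone.

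Among secreted matrix and matrix-binding proteins, Clec3b, which encodes tetranectin, a plasminogen-binding protein, stood at 7.94, 63.2 and 203 CPM in healthy and at 1.4, 10.9 and 39.1 CPM in tumour-bearing mice. It rose at each step in both, by 4.71 ± 0.34 on the log2 scale from day 7 to day 21 (adjusted p = 0.000519), and 97.3% of its UMIs came from fibroblast-like cells. The gene lies on chromosome 9 from 123150946 to 123157432 on the + strand (GRCm38). Dpt, which encodes dermatopontin, a partner of decorin, stood at 10.5, 86.7 and 299 CPM in healthy and 6.77, 41.9 and 58.8 CPM in tumour-bearing mice, again with no overlap between days 7 and 21 (4.03 ± 0.43, adjusted p = 0.00236). Fstl1, a secreted glycoprotein related to follistatin, stood at 18.4, 108 and 378 CPM and 20.8, 56.8 and 126 CPM (3.44 ± 0.41, adjusted p = 0.00365). For Dpt and Fstl1, 98.1% and 95.2% of the UMIs lay in fibroblast-like cells. Nid1, the basement membrane protein nidogen-1, stood at 2.51, 21.8 and 85.6 CPM and 4.44, 14.3 and 39.8 CPM (3.95 ± 0.44, adjusted p = 0.00236). In each of these 4 genes the healthy library of day 21 was the highest of the 6, and the tumour-bearing library of day 21 held less. With edgeR but without status as a block, the calls of Clec3b (adjusted p = 0.346), Dpt (0.196) and Fstl1 (0.0907) were lost.

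Ogn and Tnxb rose too, with wider error. Ogn, which encodes osteoglycin, a small leucine-rich proteoglycan, stood at 1.67, 38.7 and 108 CPM in healthy mice and at 3.03, 33.3 and 22.2 CPM in tumour-bearing mice, where day 14 was the highest. Its change from day 7 to day 21 was 4.34 ± 0.71 (adjusted p = 0.0294). Tnxb, which encodes tenascin-X, a glycoprotein that organises collagen fibrils, stood at 6.27, 13.8 and 76.3 CPM in healthy mice and at 0, 4.02 and 32 CPM in tumour-bearing mice, with no UMI in the tumour-bearing library of day 7 (4.56 ± 0.69, adjusted p = 0.0213). Both calls ended when a library of day 14 was left out: without the healthy or the tumour-bearing one the adjusted p was 0.0864 and 0.0882 for Ogn and 0.144 and 0.153 for Tnxb. Dpt, Ogn, Nid1 and Tnxb overlap other annotated genes (Gm32569, Cenpp, Gm48682 and Cyp21a2-ps), as do Rarres2 (Lrrc61) and Ccne2 (Ints8), and the sources used here do not say whether counting used the strand.

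Other genes among the increases encode secreted proteins. Rarres2 encodes chemerin, which attracts macrophages and dendritic cells, and stood at 2.93, 40.9 and 73.3 CPM in healthy and 6.54, 10.3 and 48.6 CPM in tumour-bearing mice (3.46 ± 0.59, adjusted p = 0.0302). Apod, the lipid carrier apolipoprotein D, was flat to day 14 and high at day 21, with 4.6, 6.23 and 60.5 CPM and 2.57, 1.15 and 34.5 CPM (3.71 ± 0.40, adjusted p = 0.00236, with 3.71 ± 0.43 from day 14 to day 21, adjusted p = 0.00185). Lbp, the lipopolysaccharide-binding protein of serum, showed the same late step, with 1.25, 1.78 and 21.5 CPM and 0.233, 3.44 and 24.6 CPM (5.14 ± 0.64, adjusted p = 0.00352). Its UMIs were less bound to 1 class, with 58.3% in fibroblast-like cells. C4b, a complement component, stood at 7.11, 12 and 82.6 CPM and 7.47, 6.31 and 48.6 CPM (3.07 ± 0.35, adjusted p = 0.00236). Within macrophage-like cells, where 14 of 8151 genes (0.172%) were called from day 7 to day 21, 12 higher (0.147%) and 2 lower (0.0245%), C4b rose as well, by 2.79 (adjusted p = 0.0236). Those 14 calls became 34 and 57 without the healthy or tumour-bearing library of day 7, 353 and 385 without those of day 14, and 33 without either of day 21.

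Sparcl1, a matricellular protein related to SPARC that is made by vessel walls and fibroblasts, had the largest increase of the 12 named genes. It stood at 1.25, 15.1 and 33.8 CPM in healthy and 0.467, 9.18 and 52.5 CPM in tumour-bearing mice, from 5 UMIs in all at day 7 to 262 at day 21 (5.74 ± 0.56, adjusted p = 0.00178). In contrast to the matrix genes above, the tumour-bearing library was the highest. Its UMIs were spread over classes, and the cluster with the highest mean level, cluster 10, held 21.8% of them. Cluster 10 has 110 cells of low depth and no name, with Wdr60, Trim44 and Dst among its leading genes. Sparcl1 lies on chromosome 5 from 104079111 to 104113733 on the - strand (GRCm38) and overlaps Gm26703. Without a limit on mitochondrial UMIs its change was 4.51 with an adjusted p of 0.0548.

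**Figure D3:**
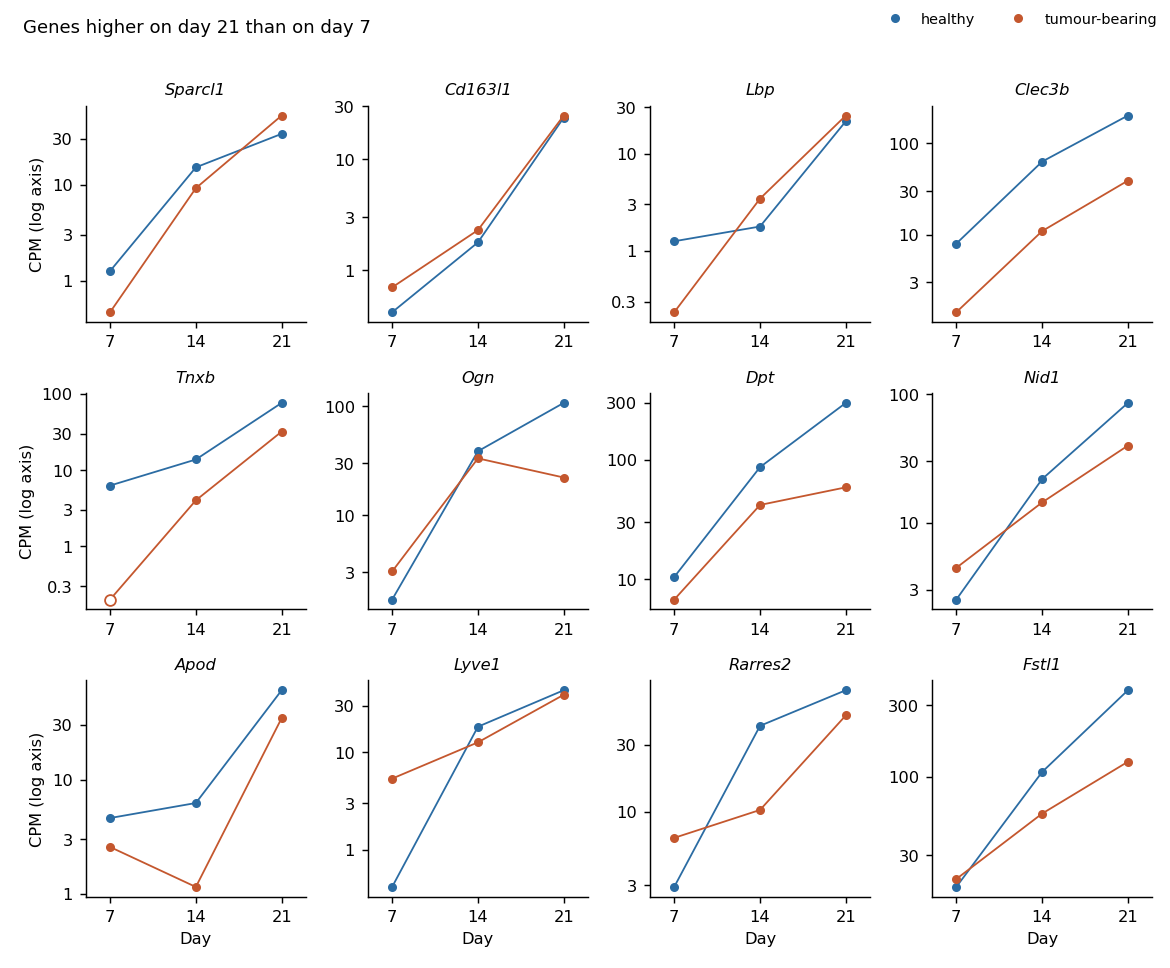
CPM (log axis) of the 12 named genes that rose most from day 7 to day 21, by day, with blue for healthy and orange for tumour-bearing libraries and an open circle for a library with no UMI. Clec3b climbs from 7.94 and 1.4 CPM to 203 and 39.1 CPM, and Apod, Lbp and Cd163l1 stay low until day 14.

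The matrix genes chosen as a list rose in part, and the fibrillar collagens were not among the calls. Of 23 tested genes of fibroblasts and extracellular matrix, 7 rose and 0 fell from day 7 to day 21, all 23 had a change above 0 and the median was 1.77, against -0.02 over all genes tested. In that contrast 17 of the 23 had an unadjusted p under 0.05. Called beside Dpt and Fstl1 were Dcn, the proteoglycan decorin (33, 278 and 432 CPM in healthy, 25.4, 92.9 and 223 CPM in tumour-bearing mice, 3.39 ± 0.33, adjusted p = 0.00178), Fbn1, the microfibril protein fibrillin-1 (2.95), Col14a1, a collagen on fibril surfaces (3.16), Mfap5, a microfibril protein (3.01), and Pdgfra, the receptor that marks fibroblasts (2.60). Col1a1 stood at 52.3, 221 and 229 CPM and 133, 54.5 and 122 CPM, a change of 0.72 ± 0.87 (adjusted p = 0.8). Col3a1 stood at 130.5, 276 and 1017 CPM and 255, 122 and 423 CPM (1.71 ± 0.59, adjusted p = 0.271), and Sparc at 58.1, 243 and 524 CPM and 197, 87.8 and 198 CPM (1.26 ± 1.02, adjusted p = 0.692). In these 3 genes the tumour-bearing library of day 14 lay below that of day 7, while the healthy one lay above.

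Single steps gave fewer calls in this list. In the first step, day 7 to day 14, only Dcn and Dpt of the 23 passed the test (median 0.50), and from day 14 to day 21 only Pdgfra did (median 1.12). The summed level of the list was 635, 2311 and 4658 CPM in healthy and 1153, 864 and 1918 CPM in tumour-bearing mice. Of 12 matrix metalloproteinases and relatives tested, 2 rose from day 7 to day 21, with a median of 0.86 over the 12. Mmp2, gelatinase A of mesenchymal cells, stood at 7.11, 12.9 and 63.1 CPM and 3.97, 4.02 and 30.6 CPM (3.04 ± 0.35, adjusted p = 0.00236). Mmp19, which also cleaves basement membrane proteins, stood at 136, 186 and 269.96 CPM and 110.2, 119.9 and 388 CPM and had 46.8% of its UMIs in cluster 0, an unnamed cluster of 360 cells with Mmp19, Procr and Penk among its leading genes. Markers of other structural cells summed to low levels in all 6 libraries: the endothelial list summed to 24.04 to 61.3 CPM, the mural and muscle list to 10.5 to 35.6 CPM and the adipocyte list to 19.8 to 31.5 CPM.

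Macrophage-like cells made up the largest named class except in the tumour-bearing library of day 21, where neutrophil-like cells were 34.7%. A small set of scavenger and lectin receptor genes rose in macrophage-like cells. These cells were 37.8%, 46.9% and 29.5% of the kept cells in healthy and 35.8%, 38.9% and 22.5% in tumour-bearing mice. Lyve1, on chromosome 7 from 110850607 to 110863239 on the - strand (GRCm38), stood at 0.418, 18.2 and 43.1 CPM in healthy and 5.37, 12.6 and 38.7 CPM in tumour-bearing mice, and 93.8% of its UMIs lay in macrophage-like cells. Its change from day 7 to day 21 was 3.64 ± 0.62 over all cells (adjusted p = 0.0294) and 3.89 within macrophage-like cells (adjusted p = 0.0305). Cd163 stood at 2.09, 7.56 and 18.9 CPM and 5.37, 8.6 and 59.5 CPM, with the tumour-bearing library of day 21 highest (3.30 ± 0.43, adjusted p = 0.00528, within macrophage-like cells 3.81, adjusted p = 0.00314). Clec10a, a lectin for galactose and N-acetylgalactosamine, stood at 18, 37.4 and 60.8 CPM and 19.6, 19.5 and 85.2 CPM (1.95 ± 0.36, adjusted p = 0.0264, within macrophage-like cells 2.32, adjusted p = 0.0317). Over all cells the Lyve1 call ended without the healthy (adjusted p = 0.0834) or the tumour-bearing library of day 14 (adjusted p = 0.0799).

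These 3 were the called members of a list of alternative activation genes of which 19 were tested over all cells (14 above 0, median 0.90) and 16 within macrophage-like cells (11 above 0, median 0.71). Arg1, arginase-1 and a common mark of that state, went the other way in value, with 126, 10.7 and 23.3 CPM in healthy and 40.9, 20.7 and 20.4 CPM in tumour-bearing mice (-1.83 ± 0.53, adjusted p = 0.158). From day 14 to day 21 within macrophage-like cells, 4 of the 16 rose, namely Mrc1, the mannose receptor (1.02), Clec10a (1.95), Cd163 (2.46) and F13a1, the coagulation factor XIII A chain (1.61). Macrophage-like cells came from 4 clusters whose mix differed between libraries. Cluster 14, led by Ccl8, Cbr2, Clec10a and Mrc1, held 4.55%, 3.06% and 12.2% of healthy and 6.90%, 6.80% and 7.56% of tumour-bearing cells, so that changes within the class include a change in this mix. The 14 macrophage genes, including Csf1r and C1qa, gave no call from day 7 to day 21 (0 at adjusted p under 0.05 in edgeR, 4 at an unadjusted p under 0.05), with a median of 0.19.

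A T cell gene showed one of the steepest steps. Cd163l1, a scavenger receptor gene of gamma-delta T cells on chromosome 7 from 140218267 to 140231145 on the + strand (GRCm38), stood at 0.418, 1.78 and 23.6 CPM in healthy and 0.7003, 2.29 and 24.6 CPM in tumour-bearing mice. The 2 libraries of day 21 held 149 UMIs and the 2 of day 7 held 4, and the healthy and tumour-bearing values were close on each day (5.27 ± 0.54, adjusted p = 0.00178, with 3.55 ± 0.48 from day 14 to day 21, adjusted p = 0.00436). T cell-like cells held 87.6% of the UMIs. Tcrg-V6, a variable segment of the gamma chain that was singled out after its values were seen, stood at 0, 2.22 and 5.69 CPM and 0.233, 2.29 and 7.75 CPM (adjusted p = 0.0226), with 98.0% of its UMIs in T cell-like cells. Of 5 tested genes of gamma-delta and type 17 lymphocytes, 1 was called, all 5 lay above 0 and the median was 2.57. Il17a, the cytokine interleukin-17A, stood at 2.09, 0.445 and 6.88 CPM and 1.17, 0.574 and 5.99 CPM (2.01 ± 0.64, adjusted p = 0.162). The T cell-like share was 1.87%, 1.65% and 4.30% in healthy and 2.17%, 0.642% and 3.44% in tumour-bearing mice (adjusted p = 0.431 from day 7 to day 21), and 0 of 17 general T cell genes were called in that contrast by edgeR, with 3 at an unadjusted p under 0.05.

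Immediate early genes, which respond within minutes to stimuli that include tissue digestion, were higher at day 21 in part. Of 17 tested, 6 rose from day 7 to day 21, all 17 lay above 0 and the median was 1.14. Fosb stood at 189, 56.5 and 428 CPM in healthy and 233, 116 and 624 CPM in tumour-bearing mice (1.29 ± 0.27, adjusted p = 0.0422). Egr1 stood at 130.05, 83.6 and 315 CPM and 198, 224 and 888 CPM (1.71 ± 0.29, adjusted p = 0.0192), and Jun, Nr4a1, Klf4 and Btg2 changed by 1.34, 1.67, 1.34 and 1.85. Within macrophage-like cells 4 of these rose, Fosb (1.60), Jun (1.37), Klf4 (1.66) and Btg2 (1.56). The summed level of the list was 4623, 4203 and 8562 CPM in healthy and 5546, 5767 and 14878 CPM in tumour-bearing mice, so day 14 was the low point in the healthy libraries and day 21 the high point in both. The part of cell handling in this or any other change was not tested.

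Genes of dividing cells made up most of the decreases. Of the 39 genes lower at day 21, 26 (66.7%) had their highest mean level in cluster 8, a cluster of 268 cells led by Top2a, Nusap1 and Mki67, which was the highest class for 487 of all 10772 genes (4.52%). Cluster 8 held 67, 45 and 22 cells in healthy libraries (8.97%, 2.75% and 1.72%) and 108, 16 and 10 in tumour-bearing libraries (8.10%, 2.05% and 0.764%). Most of the drop came before day 14, and the change in the share from day 7 to day 21 was -2.85 ± 0.66 on the log2 scale (adjusted p = 0.0117). As with the fibroblast-like class, cluster and genes are the same measurement, and the call was lost without the healthy library of day 7 (-3.18, adjusted p = 0.178), the tumour-bearing library of day 7 (-2.55, adjusted p = 0.376) or that of day 21 (-2.44, adjusted p = 0.147). The cells have no type name, since their leading genes are those of the cell cycle.

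For 3 of the decreasing genes the 250 bases before the start site are shown, because genes of dividing cells often share a CCAAT element, bound by NF-Y, and a cell cycle homology element whose core reads TTTGAA. Of the 12 named genes that fell, 10 were matched in the RefSeq promoter table of GRCm38.p6. Of the 10, 8 held CCAAT or its other strand ATTGG, which 33.8% of 32851 promoters of that length hold, 5 held TTTGAA or TTCAAA (16.0% of promoters) and 4 held both (5.55% of promoters). A match describes these letters and is not a measured site. The sequences run 5′ to 3′ along the gene, at chr11:99024190-99024439 on the - strand for Top2a, chr19:37376132-37376381 on the + strand for Kif11 and chr13:21780626-21780875 on the - strand for Hist1h1b, and capitals mark CCAAT and TTTGAA on either strand (6 and 2 in Top2a, 1 and 1 in Kif11, 3 and 1 in Hist1h1b).
Top2a: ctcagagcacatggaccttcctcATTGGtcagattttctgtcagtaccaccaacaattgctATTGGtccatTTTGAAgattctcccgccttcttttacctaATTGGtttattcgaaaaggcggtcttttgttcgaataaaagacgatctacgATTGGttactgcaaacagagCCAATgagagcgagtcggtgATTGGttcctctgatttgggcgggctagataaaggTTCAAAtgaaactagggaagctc
Kif11: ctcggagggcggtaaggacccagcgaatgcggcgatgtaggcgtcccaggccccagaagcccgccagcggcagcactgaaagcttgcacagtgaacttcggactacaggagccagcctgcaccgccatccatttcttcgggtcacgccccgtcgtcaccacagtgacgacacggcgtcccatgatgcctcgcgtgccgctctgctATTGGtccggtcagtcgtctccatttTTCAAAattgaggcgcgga
Hist1h1b: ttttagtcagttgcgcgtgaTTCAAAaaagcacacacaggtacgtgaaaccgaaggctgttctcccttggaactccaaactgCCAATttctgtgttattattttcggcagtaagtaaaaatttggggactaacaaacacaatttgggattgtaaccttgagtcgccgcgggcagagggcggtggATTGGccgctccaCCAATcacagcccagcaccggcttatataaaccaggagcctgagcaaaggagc

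Hist1h1b, which encodes a linker histone made during DNA replication, had the largest decrease of the 12 named genes that fell from day 7 to day 21. It stood at 109.97, 33.8 and 16.5 CPM in healthy and 178, 44.2 and 22.2 CPM in tumour-bearing mice, lower on each later day in both (-2.87 ± 0.28, adjusted p = 0.00178). It was also 1 of 13 genes lower at day 14 than at day 7 (-1.86 ± 0.27, adjusted p = 0.0153). With all barcodes shared between libraries left out, both calls were lost, at -3.11 (adjusted p = 0.0778) to day 21 and -2.30 (adjusted p = 0.271) to day 14. Top2a, the topoisomerase that untangles chromosomes, stood at 231, 103 and 91.9 CPM and 278, 89.5 and 39.4 CPM, with most of the fall before day 14 (-2.04 ± 0.35, adjusted p = 0.0199). The mitotic kinesin Kif11 stood at 24.7, 10.7 and 8.08 CPM and 32.7, 7.46 and 4.93 CPM (-2.16 ± 0.39, adjusted p = 0.0228), and Kif15, which acts with it on the spindle, at 21.3, 9.79 and 5.39 CPM and 37.3, 15.5 and 4.22 CPM (-2.54 ± 0.40, adjusted p = 0.0132). In all 4 genes both libraries of day 21 lay below both of day 7, and 68.6% to 80.3% of the UMIs came from cluster 8. Calls near the threshold moved with single libraries: Top2a lost its call without the healthy (adjusted p = 0.0693) or tumour-bearing library of day 14 (adjusted p = 0.0666) or the tumour-bearing library of day 21 (adjusted p = 0.0652), and Kif11 without the tumour-bearing library of day 7 (adjusted p = 0.088) or day 21 (adjusted p = 0.0576).

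Other named decreases include genes of replication and the kinetochore. Rrm2, the subunit of ribonucleotide reductase that sets the supply of DNA precursors, stood at 29.7, 21.8 and 9.88 CPM in healthy and 37.3, 12.6 and 6.69 CPM in tumour-bearing mice (-2.05 ± 0.37, adjusted p = 0.0228). Ccne2, cyclin E2 of the step into S phase, held its level to day 14 in healthy mice, with 21.7, 20.02 and 4.79 CPM and 24, 9.75 and 5.63 CPM (-2.15 ± 0.42, adjusted p = 0.0294). Clspn, a checkpoint adaptor at replication forks, changed by -1.80, Ndc80, which ties kinetochores to microtubules, by -1.93, Ckap2, a spindle protein, by -2.32, Diap3, a formin, by -1.97, and Pcp4l1 by -2.17. Without the tumour-bearing library of day 7 the calls of Rrm2 (adjusted p = 0.0871), Ccne2 (0.0526), Ndc80 (0.118), Ckap2 (0.139) and Diap3 (0.0526) were lost, and without that of day 21 those of Ndc80 (0.142), Diap3 (0.142) and Pcp4l1 (0.0925).

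Of 20 tested cell cycle genes of the chosen list, 2 fell from day 7 to day 21 (Top2a and Rrm2), 19 lay below 0, 17 had an unadjusted p under 0.05 and the median was -1.30. Mki67, the antigen of cycling cells, stood at 222, 52.5 and 117 CPM in healthy and 346, 123 and 76.8 CPM in tumour-bearing mice (-1.47 ± 0.40, adjusted p = 0.119), and Tyms, thymidylate synthase, changed by -1.79 ± 0.42 (adjusted p = 0.0605). By day 14 all 20 lay below 0 (median -0.95), and from day 14 to day 21 the median was -0.34. Within macrophage-like cells, from which cluster 8 is left out, 11 of the genes could be tested and their median from day 7 to day 21 was -0.40.

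**Figure D4:**
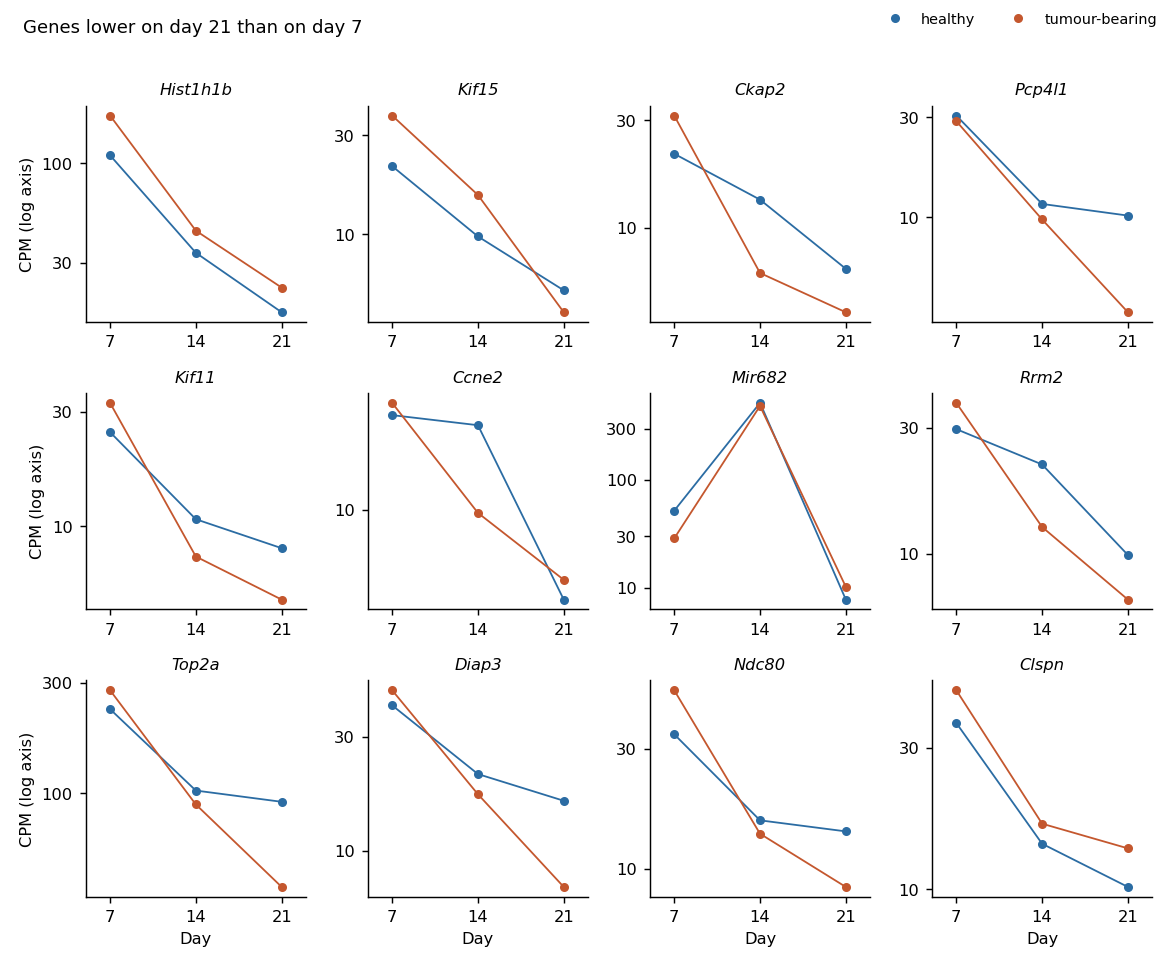
CPM (log axis) of the 12 named genes that fell most from day 7 to day 21, by day, with blue for healthy and orange for tumour-bearing libraries. Hist1h1b drops from 109.97 and 178 CPM to 16.5 and 22.2 CPM, and Mir682 stands apart with a peak at day 14.

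Day 14 had features of its own, among them the barcodes ending in N given above. In the step from day 7 to day 14, 50 genes were higher and 13 lower with the same sign in both statuses (0.464% and 0.121% of 10772, together 0.585%), 79.4% of the calls being higher, a share that was 52.5% when counts were scaled by library totals alone. An F test over the 3 days called 356 genes (3.3%), of which 102 (0.947%) were highest and 98 (0.91%) lowest at day 14 in both statuses. Without the healthy library of day 7 or 21 the F test called 1121 and 735 genes, and without the tumour-bearing library of day 7, 14 or 21 it called 1048, 642 and 595. Of the 50 higher genes, 25 (50%) had their highest mean level in the epithelial-like class, against 1167 of all genes (10.8%). Of the 76 cells of this class 45 (59.2%) came from the healthy library of day 14, so the class and the day overlap, and a gene can count here with few of its UMIs in the class, as Mir682 (2.33%) and RPL24 (4.1%) did. Epithelial-like cells numbered 0, 45 and 8 in healthy libraries (0% with an upper limit of 0.493%, then 2.75% and 0.625%) and 4, 11 and 8 in tumour-bearing ones (0.300%, 1.41% and 0.611%, adjusted p = 0.0569 for the change to day 14). Leaving out the healthy library of day 14 left 26 higher and 3 lower genes, while leaving out the healthy library of day 7 or 21 gave 124 and 172 higher and 74 and 116 lower, and leaving out the tumour-bearing library of day 7, 14 or 21 gave 197, 120 and 201 higher and 145, 134 and 167 lower.

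Epcam, the epithelial adhesion molecule, on chromosome 17 from 87635979 to 87651129 on the + strand (GRCm38), stood at 0.836, 83.6 and 17.7 CPM in healthy and 5.37, 59.1 and 25.4 CPM in tumour-bearing mice. Both libraries of day 14 lay above the other 4 (4.43 ± 0.56, adjusted p = 0.0118, with -1.79 from day 14 to day 21, adjusted p = 0.0818), and 92.4% of the UMIs were in epithelial-like cells. Wfdc18, a secreted protein with a whey acidic protein domain that is found in mammary epithelium, stood at 1.25, 71.6 and 2.99 CPM and 2.8, 36.1 and 9.15 CPM and went up and down again (4.64 ± 0.65, adjusted p = 0.0226, then -3.21 ± 0.58, adjusted p = 0.029). The growth factor pleiotrophin, Ptn, stood at 13.8, 222 and 76 CPM and 39, 204 and 86.6 CPM (3.08 ± 0.39, adjusted p = 0.0086), with 88.2% of its UMIs in epithelial-like cells. The keratin Krt18 shows the uneven base of such values, with 0, 115 and 10.5 CPM in healthy and 5.14, 28.1 and 15.5 CPM in tumour-bearing mice (adjusted p = 0.339). Of 5 epithelial genes tested, 1 was called from day 7 to day 14 and all 5 lay above 0, and the list summed to 2.93, 457 and 57.5 CPM in healthy and 24, 156 and 83.8 CPM in tumour-bearing mice. The sources used here do not say where the scaffold lay relative to mammary tissue. Without the healthy library of day 14 the later fall of Wfdc18 was -1.998 (adjusted p = 0.0993).

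Red cell transcripts also peaked at day 14. Hbb-bs, a beta globin gene on chromosome 7 from 103826534 to 103828096 on the - strand (GRCm38), stood at 1.25, 43.6 and 0.299 CPM in healthy and 2.8, 60.8 and 3.17 CPM in tumour-bearing mice (4.71 ± 0.50, adjusted p = 0.00553, then -5.04 ± 0.52, adjusted p = 0.00102). Hba-a1, an alpha globin gene, stood at 1.67, 27.1 and 1.2 CPM and 1.87, 29.8 and 0.704 CPM (3.96 ± 0.46, adjusted p = 0.00783, then -4.81 ± 0.51, adjusted p = 0.00108). Of 4 erythroid genes tested, the same 3 globin genes, Hba-a2 included, rose to day 14 and fell after it. Hba-a1 and Hba-a2 are near-identical copies, and the sources used here do not say how reads were split between them. Hbb-bs was also called within macrophage-like cells (3.32, adjusted p = 0.0159), and the part of free RNA in the droplets was not tested.

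Entries for short or repeated transcripts swung with day 14 as well. Mir682, an entry named for a microRNA on chromosome 13 from 75645046 to 75645141 on the + strand (GRCm38) that overlaps the pseudogene Gm4149, stood at 51.9, 519 and 7.78 CPM in healthy and 28.7, 486 and 10.2 CPM in tumour-bearing mice (3.68 ± 0.33, adjusted p = 0.00223, then -5.80 ± 0.38, adjusted p = 0.000181). It showed the same rise within macrophage-like cells (3.62) and, from the 16-library fit across tissues, in lung (3.25, adjusted p = 0.0088, where 0.124% of genes were called) and spleen (2.71, adjusted p = 0.0077, 0.457% called). RPL24, written in capitals in the files and not matched in the annotation, stood at 29.7, 100.1 and 9.28 CPM and 19.4, 136 and 12.7 CPM (2.27 ± 0.34, adjusted p = 0.0155) and was 2.77 higher in lung too (adjusted p = 0.029). Of 306 entries with Gm numbers or pseudogene names, 17 rose and 2 fell from day 7 to day 14, and 10 rose and 56 fell from day 14 to day 21. Without these entries and ribosomal protein genes, 26 higher and 7 lower genes were called from day 7 to day 14. Orc5, a subunit of the origin recognition complex that overlaps Gm15421, had the same shape, with 10.9, 56 and 8.38 CPM and 9.34, 46.5 and 6.69 CPM (2.33 ± 0.31, adjusted p = 0.0109, 0.0529 without the healthy library of day 14). To day 14 Orc5 also changed by 2.01 in lung and 1.08 in spleen, which did not pass. Hspa1a, an inducible heat shock protein, was the 1 called gene of 11 in its list, with 8.36, 133 and 41 CPM and 25.9, 112 and 59.5 CPM (2.93 ± 0.41, adjusted p = 0.0143).

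**Figure D5:**
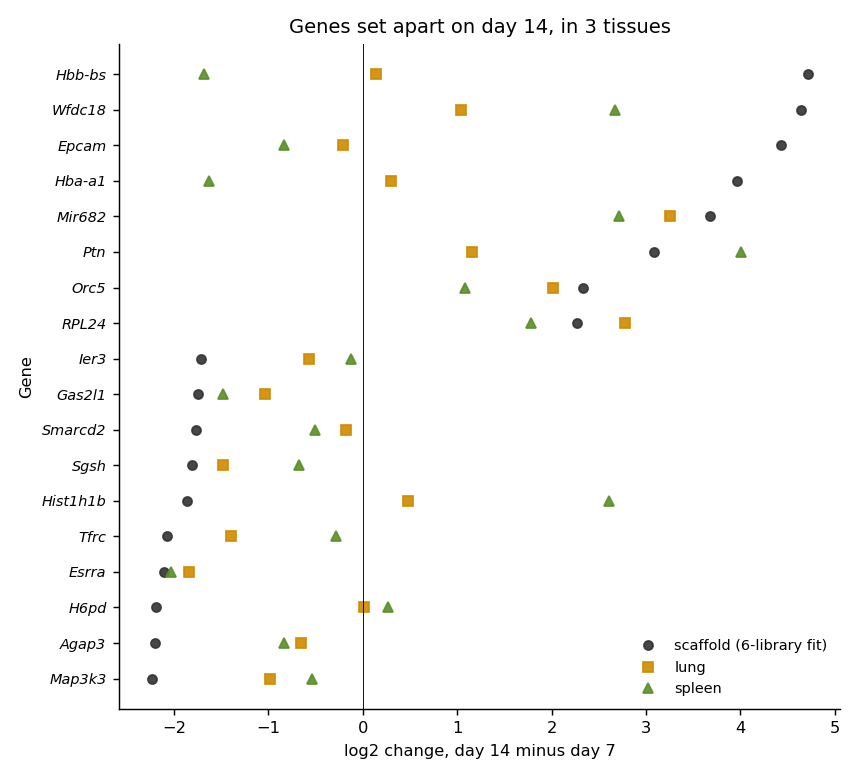
Log2 change from day 7 to day 14 of 18 genes in scaffold (6-library fit), lung and spleen (16-library fit), 1 point per tissue. Mir682 is high in all 3 tissues (3.68, 3.25 and 2.71). Epcam, Hbb-bs and Hba-a1 stand at 4.43, 4.71 and 3.96 in the scaffold. The same genes stand at -0.21, 0.14 and 0.30 in lung and at -0.83, -1.68 and -1.63 in spleen. Only Epcam passed the test of the difference between scaffold and organs.

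Other genes had their low point at day 14. Apart from H6pd, those described here also had changes below 0 from day 7 to day 14 in lung and spleen, none of which passed the test. Esrra, for example, changed by -1.84 in lung and -2.03 in spleen. Map3k3, a kinase upstream of MAP kinase pathways, stood at 31.8, 6.23 and 51.5 CPM in healthy and 39.9, 9.18 and 127 CPM in tumour-bearing mice (-2.23 ± 0.38, adjusted p = 0.0309, then 3.44 ± 0.38, adjusted p = 0.00129). Map3k3 overlaps the antisense gene Gm11672. The lysosomal enzyme gene Sgsh stood at 57.7, 22.2 and 65.2 CPM and 67.2, 13.8 and 56 CPM, with 60.4% of its UMIs in macrophage-like cells, where it fell as well (-1.81 ± 0.32 over all cells, adjusted p = 0.0401, and -1.97 within the class, adjusted p = 0.00783). Tfrc, the transferrin receptor, stood at 102, 17.3 and 60.8 CPM and 85.2, 27 and 32 CPM (-2.07 ± 0.37, adjusted p = 0.0405). The low point was thus shared by both statuses in each of these 3 genes. Agap3 and H6pd, an enzyme that makes NADPH in the endoplasmic reticulum, had the same form, with changes of -2.20 ± 0.39 and -2.19 ± 0.37. Smarcd2, a chromatin remodelling subunit, and Gas2l1, a cytoskeletal linker, were also lowest at day 14, at 38.1, 11.6 and 35.9 and 27.6, 12.5 and 41.6 CPM in healthy and 28.9, 8.03 and 29.9 and 39, 7.46 and 32 CPM in tumour-bearing mice. Ier3, an immediate early gene, stood at 85.3, 21.4 and 218 CPM and 159.7, 56.2 and 259.8 CPM (-1.71 ± 0.32, adjusted p = 0.0473), and the nuclear receptor Esrra at 66.5, 16.5 and 38.3 CPM and 28.5, 5.16 and 39.4 CPM (F test, adjusted p = 0.0427). These calls were close to the threshold: without the healthy library of day 14 the adjusted p was 0.145 for Map3k3, 0.0629 for Sgsh, 0.225 for Tfrc, 0.281 for Agap3, 0.109 for H6pd, 0.212 for Smarcd2 and 0.225 for Ier3. Without the tumour-bearing one it was 0.0639 for Map3k3, 0.0621 for Sgsh, 0.0586 for H6pd and 0.0612 for Smarcd2, and without the healthy library of day 7 it was 0.0515 for Smarcd2.

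Genes of antigen presentation by MHC class II rose within macrophage-like cells at day 14. Within macrophage-like cells 45 genes were higher and 49 lower at day 14 than at day 7 (0.552% and 0.601% of 8151, together 1.15%), and 6 of the 8 tested class II genes were among the higher ones, with a median of 1.43 over the 8. Cluster 4, a macrophage-like cluster with C1qa and Cd74 among its leading genes, went from 71 to 364 cells in healthy and from 90 to 96 in tumour-bearing libraries between these days, out of 282 and 767, and 477 and 303, macrophage-like cells, and its part in the result was not tested. Cd74, the invariant chain that loads class II molecules, stood at 1861, 7882 and 4879 CPM in healthy and 1561, 4154 and 2201 CPM in tumour-bearing macrophage-like cells (1.73, adjusted p = 0.00951). H2-Aa, H2-Ab1 and H2-Eb1, the chains of the class II molecules themselves, changed by 1.49, 1.34 and 1.38, and the peptide exchange chains H2-DMa and H2-DMb1 by 1.61 and 1.83. Ciita, the master regulator of the group, changed by 1.21 (adjusted p = 0.332). Over all cells the 8 genes lay above 0 with a median of 1.18, but 0 passed in edgeR, with 7 at an unadjusted p under 0.05. All-cell Cd74 stood at 1895, 7194 and 4228 CPM and 1648, 3926 and 1311 CPM, so day 21 was below day 7 in the tumour-bearing and above it in the healthy mice. Within the class, Adamts1, a secreted protease, stood at 43.4, 4.68 and 49.8 CPM and 35.4, 3.47 and 17.3 CPM and had the low point at day 14 (-3.33 ± 0.50, adjusted p = 0.00687). The count within the class, 94, was 192 without the healthy and 1203 without the tumour-bearing library of day 14, and 167 without the tumour-bearing library of day 21.

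The step from day 14 to day 21 carried the most calls, 185 genes higher and 126 lower with the same sign in both statuses (1.72% and 1.17% of 10772, together 2.89%). Another called gene, Stfa3, had no shared sign, for 2.9% in all. Among the 126 lower genes, 56 were entries with Gm numbers or pseudogene names (306 of all 10772 genes) and 7 were ribosomal protein genes. Without such entries 146 genes were higher and 46 lower, against 157 and 34 from day 7 to day 21. Of the 185, 45 (24.3%) were highest in cluster 12, 32 (17.3%) in neutrophil-like, 30 (16.2%) in fibroblast-like and 19 (10.3%) in neutrophil progenitor-like cells. These 4 were the highest class of 5.7%, 3.3%, 8.85% and 2.46% of all genes, and 92.3% of neutrophil-like and 94.1% of neutrophil progenitor-like cells came from the tumour-bearing library of day 21. Cluster 12 has 722 shallow cells with Ptgs2, Il1f9 and Hdc among its leading genes. In it 9 neutrophil markers were raised, but 0 were among its 10 leading genes, so it stayed unnamed. Of the 126 lower genes, 38 (30.2%) were highest in the epithelial-like class, against 10.8% of all genes. Cells of this class came mostly from day 14, and the 38 genes include Wdr89 with only 1.97% of its UMIs there. The counts rested on the healthy library of day 14, without which 57 genes were higher and 52 lower. Without the healthy library of day 7 there were 592 and 317, without the tumour-bearing library of day 7 592 and 313, and without the healthy library of day 21 324 higher genes.

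Neutrophil and cytokine genes rose in this step, and the tumour-bearing library of day 21 held the highest levels. Trem1, a receptor that amplifies inflammation in neutrophils and monocytes, stood at 25.9, 4.45 and 60.2 CPM in healthy and 49.7, 32.1 and 387 CPM in tumour-bearing mice (3.56 ± 0.47, adjusted p = 0.00822). The decoy interleukin-1 receptor Il1r2 stood at 14.2, 4.89 and 37.7 CPM and 29.4, 27 and 396 CPM (3.50 ± 0.55, adjusted p = 0.0216), and the cytokine oncostatin M, Osm, at 23.8, 13.3 and 67.6 CPM and 38, 23.5 and 376 CPM (3.28 ± 0.47, adjusted p = 0.012). Of 18 mature neutrophil genes 7 rose in this step and all 18 lay above 0 (median 2.61), and the list summed to 2468, 1233 and 5179 CPM in healthy and 5593, 14254 and 83831 CPM in tumour-bearing mice. The neutrophil-like class held 0, 0 and 2 cells in healthy and 5, 31 and 454 cells in tumour-bearing libraries, the last being 34.7% of that library. The unnamed cluster 12, with its 9 raised neutrophil markers, held 63, 23 and 211 cells in healthy and 232, 132 and 61 in tumour-bearing libraries. At clustering resolution 1.5, a cluster of 400 cells led by Ptgs2 and G0s2 was named neutrophil-like, so the class counts depend on the clustering. Without neutrophil-like and neutrophil progenitor-like cells, a choice made after the data were seen, Trem1 changed by 1.85 (adjusted p = 0.259) and Il1r2 by 1.49 (adjusted p = 0.222), and Osm by 2.01 (adjusted p = 0.0203). Cluster 12 was kept there, so these values are not free of cells with neutrophil markers. Those cells left out, 110 genes were higher and 92 lower in this step. From day 7 to day 21 the counts without them were 145 higher and 32 lower genes, 144 of them among the 185. Trem1, Il1r2 and Osm lost their calls without the healthy (adjusted p = 0.193, 0.369 and 0.189) or the tumour-bearing library of day 14 (0.0975, 0.333 and 0.169).

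Within macrophage-like cells, 102 genes rose and 108 fell from day 14 to day 21 (1.25% and 1.32% of 8151, together 2.58%). Nfkbiz, a nuclear inhibitor-like partner of NF-kB, stood at 31.5, 15.9 and 111 CPM in healthy and 39.4, 13.9 and 93.1 CPM in tumour-bearing macrophage-like cells (2.76 ± 0.34, adjusted p = 0.000474). The neutrophil chemokine genes Cxcl1 and Cxcl2 rose by 3.57 (adjusted p = 0.0021) and 2.36 (adjusted p = 0.0023), and Osm by 2.58, which were the 3 called of 14 inflammatory genes tested there. Of the 17 immediate early genes, 9 rose in the class, with Fosb at 2.88 (adjusted p = 5.55e-05) and Ier3 at 3.31. Over all cells the interleukin-1 beta gene Il1b stood at 631, 121 and 1524 CPM in healthy and 1297, 733 and 2491 CPM in tumour-bearing mice (2.63 ± 0.45, adjusted p = 0.0266). The count of 210 in the class was 384 and 374 without the healthy or the tumour-bearing library of day 7, 451 and 1306 without those of day 14 and 66 without the healthy library of day 21.

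Whether the course over the days differed between the statuses was tested with a slope for each. With edgeR 0 of 10772 genes (0%) passed at an adjusted p under 0.05, and 202 had an unadjusted p under 0.05. DESeq2 was not run for this result, and the fit leaves 2 residual degrees of freedom. Of the 4 genes of smallest p, Retnlg, Mmp8 and Cd177 are known from neutrophils, and all 4 were highest in the tumour-bearing library of day 21. Retnlg, a resistin-like protein, stood at 18.4, 16 and 64.6 CPM in healthy and 38.5, 401 and 5011 CPM in tumour-bearing mice, Mmp8, neutrophil collagenase, at 13.4, 11.1 and 22.1 CPM and 23.1, 91.2 and 2389.9 CPM, Cd177 at 2.09, 2.67 and 1.5 CPM and 1.63, 15.5 and 164 CPM, and BC100530 at 13.4, 8.01 and 20.1 CPM and 71.9, 530.03 and 3891 CPM. The differences between the changes over 14 days were 5.17, 5.97, 7.11 and 5.14 on the log2 scale, with unadjusted p-values of 5.45e-05, 5.55e-05, 1.42e-05 and 5.48e-05 and an adjusted p of 0.149 for Cd177. With single libraries left out, 1 (healthy, day 21) to 19 genes (healthy, day 7) passed.

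Lung and spleen of the same days allow the scaffold change to be set against theirs, in a fit of 16 libraries without the healthy lung and spleen of day 21, so that at day 21 both organs rest on tumour-bearing mice. In 12918 genes the change from day 7 to day 21 differed between scaffold and the mean of the organs for 347 genes (2.69%), 262 of them larger (2.03%) and 85 smaller (0.658%) in the scaffold. Of the 146 genes that rose in the scaffold, 18 rose more than in the organs and 1 less. In lung 18 of the 146 were called in the same and 7 in the opposite direction, against 6.87% of all genes called, and in spleen 11 and 4 (6.91%). Of the 39 that fell, 8 fell more than in the organs. In lung 9 of the 39 were called in the same and 1 in the opposite direction, and in spleen 8 were called, all 8 in the opposite direction. Over the first step, days 7 to 14, 1 gene differed between scaffold and organs (0.00774%), Epcam, at 4.95 ± 0.68 (adjusted p = 0.0364). The 347 calls were 106 without the healthy scaffold library of day 7, 177 without the tumour-bearing one and 137 without the healthy one of day 21.

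Of the 12 named decreases, Hist1h1b, Kif11 and Ccne2 differed between scaffold and organs. Spleen levels in this paragraph are CPM without TMM factors. Hist1h1b fell in the scaffold and stood at 77.8, 712 and 424 CPM in the spleen of tumour-bearing mice, and the difference between scaffold and organs was -3.62 ± 0.70 (adjusted p = 0.0248). Kif11 stood at 18.1, 70.5 and 104.6 CPM in that spleen, with a difference of -3.04 ± 0.71. Ccne2 stood at 6.70, 55.9 and 87.6 CPM there, with a difference of -4.61 ± 0.82. In healthy spleen, days 7 and 14 gave 28.9 and 44.7 CPM for Hist1h1b, 21.7 and 15.2 CPM for Kif11 and 5.42 and 3.38 CPM for Ccne2. Whether these differences between scaffold and organs hold without a tumour was not tested. In the spleen itself Kif11 changed by 2.51 (adjusted p = 0.0423) and Ccne2 by 3.80 (adjusted p = 0.0124) from day 7 to day 21, against -0.76 and 1.11 in lung, which did not pass. Among the genes that rose, Nid1 and Rarres2 differed from the organs, and the level of 0 CPM of both in the tumour-bearing spleen of day 21 leaves the size of that difference undefined.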

How the data were processed

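Drop-seq libraries of scaffold cells, 1 per status and day, were analysed as deposited: the authors deposited tables of raw counts, UMIs by gene and barcode. The submitters' processing notes name Seurat 2 and the build mm10, and the aligner, annotation and cell calling were not given in the sources used here. Barcodes with 200 or more genes and under 20% mitochondrial UMIs were kept, and a barcode shared by libraries of a day stayed only where its UMIs were at least 5 times the next. Counts were summed per library (1811388 to 4196778 UMIs) and fitted with edgeR 4.0.16 in R 4.3.3 (glmQLFit, robust, TMM factors, filterByExpr, status and day as factors, 2 residual degrees of freedom, biological coefficient of variation 0.235), with Benjamini-Hochberg adjustment over all genes tested. CPM are TMM-scaled. The fit within macrophage-like cells held 8151 genes and the fit across tissues 12918.

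The labels carry no replicate numbers, and the block is the status. The correlation across genes of the tumour-minus-healthy deviations was -0.01 between days 7 and 14, 0.13 between days 7 and 21 and 0.34 between days 14 and 21, where genes are not independent replicates. Cells were clustered with scanpy 1.11.5 (2000 variable genes, 30 principal components, 15 neighbours). Genes left out of the variable set were chosen after the data were seen. The Leiden method of igraph 0.11.9 at resolution 1 gave 22 clusters, of which 8 with 2725 cells stayed unnamed. A name required 3 markers raised 1.5 times or more over the other cells and more markers of that class than of any other among the 10 leading genes, so clusters 12, 6, 5 and 10, with 9, 6, 5 and 4 raised markers, stayed unnamed. Scrublet marked 26 of 7082 cells (0.367%), too few to have worked, and no doublets were removed. Named genes are the 12 called genes of largest change in each direction from day 7 to day 21, and the 6 in each direction for the other 2 contrasts, with 20 CPM or more in both libraries of the higher day and without Gm-numbered, Rik, mitochondrial and ribosomal protein symbols, together with the 6 called genes most clearly highest and lowest at day 14, the 4 of smallest p for the slope and members of the gene lists. Ribosomal protein symbols left out were those starting with Rpl or Rps, so RPL24, written in capitals, stayed in. The gene lists, the markers and the choice of libraries were made with earlier results of these data known. Symbols were placed with GENCODE vM21 (GRCm38), which holds 47 of the 49 named genes. DESeq2 1.42.0 and other settings were run as alternatives, and the fit was tested on simulated counts.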

Additional observations from a re-analysis of the deposited data

Results flagged for a closer look

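For 6 named genes the change in the scaffold differed from the mean change of lung and spleen in edgeR's test of the difference itself, over 16 libraries. From day 7 to day 21, Hist1h1b differed by -3.62 ± 0.70 (adjusted p = 0.0248), with a change of -0.97 in lung and 2.45 in spleen, neither past the threshold (adjusted p = 0.42 and 0.0626). Kif11 differed by -3.04 ± 0.71 (adjusted p = 0.0404) and Ccne2 by -4.61 ± 0.82 (adjusted p = 0.00917). Nid1 differed by 7.51 ± 2.89 (adjusted p = 0.00744) and Rarres2 by 6.29 ± 3.85 (adjusted p = 0.0484), but both had no UMI in the tumour-bearing spleen of day 21, so these values are no measure of size. From day 7 to day 14, Epcam differed by 4.95 ± 0.68 (adjusted p = 0.0364), with -0.21 in lung and -0.83 in spleen. The organs rest on tumour-bearing mice alone at day 21.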

How the results depend on the processing

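Among 1323 values of 62 named genes, contrasts and classes under alternative settings, 1082 kept direction and side of the threshold, 206 lost the call, 26 gained one and 9 changed sign. The cause of these moves was not tested, except that leaving out a library leaves the shared sign of that day to the other status, with the lone library assumed to vary like the rest. All 9 sign changes came with day as a number, which cannot hold a peak or low point: Hbb-bs (-0.083), Hba-a1 (-0.18), Mir682 (-0.90), Orc5 (-0.17), RPL24 (-0.53), Map3k3 (0.62), Ier3 (0.52) and Gas2l1 (0.0697) for day 14 against day 7, or for day 21 against day 14 in the case of Wfdc18 (0.52).

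With no replicate block, the block being the status, the counts of higher and lower genes were 6 and 1 from day 7 to day 21, 20 and 0 from day 7 to day 14 and 50 and 77 from day 14 to day 21, the F test called 87 genes and 0 classes were called from day 7 to day 21. The counts from day 7 to day 21 were 203 to 441 higher and 52 to 121 lower with 1 library left out. They were 293 and 111 with library totals alone, 561 and 203 with no filter on low counts and 59 and 3 with day as a number. The lower genes numbered 15 with 16 libraries of all tissues, 9 with all 18 and 24 with cells of 400 or more genes. DESeq2 gave 190 and 52, and 159 of the 185 were shared.

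From day 7 to day 14 there were 26 to 201 higher and 3 to 167 lower genes with 1 library left out, 116 and 105 with library totals alone, 87 and 38 with DESeq2, 254 and 234 with no filter, 30 and 6 with 16 libraries, 25 and 3 with 18, and 26 and 7 without pseudogenes and ribosomal genes. The lower genes numbered 3 with day as a number, 6 with no limit on mitochondrial UMIs, 2 with all shared barcodes kept, 30 with libraries thinned to 1 depth and 20 without neutrophil-like and progenitor-like cells. From day 14 to day 21 there were 57 to 592 higher and 52 to 317 lower genes with 1 library left out, 645 and 300 with no filter, 58 and 3 with day as a number, 70 and 46 with 18 libraries, 369 higher with library totals alone, 103 higher with 400 or more genes, 110 higher without neutrophil-like and progenitor-like cells and 46 lower without pseudogenes and ribosomal genes. Wdr89 from day 14 to day 21 was -0.92 (adjusted p = 0.557) with all shared barcodes kept, against -3.14.

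The F test called 327 to 1121 genes with 1 library left out, 749 with library totals alone and 1407 with no filter. The slope test called 1 to 19 with 1 library left out, 16 with no filter and 5 with 400 or more genes. Scaffold against the organs gave 106 to 271 genes from day 7 to day 21 with 1 library left out and 165 with all shared barcodes kept, and 0 to 6 from day 7 to day 14, or 0 with 400 or more genes. Within macrophage-like cells, 1 library left out gave 33 to 385 genes from day 7 to day 21, 82 to 1203 from day 7 to day 14 and 66 to 1306 from day 14 to day 21. With no filter these were 120, 256 and 489. DESeq2 gave 30 and 55 in the first 2 of these, and library totals alone gave 25 in the first. Classes called were 0 to 4, 0 to 1 and 0 to 0 in the 3 contrasts with 1 library left out. At resolution 0.5 the last 2 contrasts called 3 and 2 classes, at 1.5 they called 2 and 4, and with barcodes alike in 11 bases merged 3 and 4, against 0 and 0 (7 and 4 at an unadjusted p under 0.05).

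Genes at a few CPM rest on single UMIs at day 7, and changes near 1 on the log2 scale were mostly out of reach with 2 libraries per day.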

Other observations

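Several gene groups of the scaffold response gave no call from day 7 to day 21. Of 22 genes of lipid-laden and foreign-body macrophages, a group that includes fusion and lipid-handling genes of giant cells, 0 were called in edgeR from day 7 to day 21, with 9 at an unadjusted p under 0.05, 19 below 0 and a median of -0.41. The 21 lysosomal genes had a median of -0.23 with 0 calls and 4 at an unadjusted p under 0.05. Of 22 type I interferon response genes 20 lay below 0, with a median of -0.62, 0 calls and 3 at an unadjusted p under 0.05, and within macrophage-like cells 19 of 20 lay below 0 (median -0.81). The 21 genes of hypoxia and glycolysis had a median of 0.09, with 0 calls and 0 at an unadjusted p under 0.05. Class I antigen presentation genes had a median of -0.48 over 12 genes with 0 calls and 2 at an unadjusted p under 0.05. A miss of the threshold does not show that these groups stayed the same.

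Plasma cell transcripts summed to 1947, 594 and 204 CPM in healthy and 200.05, 143 and 174 CPM in tumour-bearing mice, with the healthy library of day 7 far above the other 5. Mast cell and basophil genes summed to 115, 214 and 285 CPM and 924, 387 and 368 CPM, with the tumour-bearing library of day 7 highest. Mitochondrially encoded genes summed to 86034, 47102 and 66644 CPM in healthy and 76906, 105479 and 104059 CPM in tumour-bearing mice, the lowest level being that of the healthy library of day 14. Ribosomal protein genes summed to 94637, 93481 and 72912 CPM and 94929, 87725 and 73223 CPM, lower at day 21 in both statuses, with 2 of 89 fallen from day 7 to day 21.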
